A study of Saccharomyces cerevisiae with 17 samples.

Results

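The genes of the Paf1 complex and of histone H2B ubiquitylation are a set of 10 genes of budding yeast, Saccharomyces cerevisiae, out of 6002 nuclear protein-coding genes. They were chosen by name: PAF1, CTR9, CDC73, LEO1 and RTF1 encode the Paf1 complex, RAD6, BRE1 and LGE1 encode the proteins that put ubiquitin on H2B, and UBP8 and UBP10 encode the proteases that take it off. They lie on 8 chromosomes and their ORFs measure 519 to 3234 bp. The study profiled dimethylated and trimethylated lysine 4 of histone H3 (H3K4me2 and H3K4me3) by chromatin immunoprecipitation and sequencing in cells of the BY4741A strain, taken in exponential growth in YPD medium and fixed with formaldehyde. The groups described are set1 deletion cells with the H3K4me2 antibody, set1 deletion cells with the H3K4me3 antibody, Cps25 wild-type cells with the H3K4me2 antibody and Cps25 wild-type cells with the H3K4me3 antibody. The antibodies are homemade rabbit polyclonals, per the labels. Each group is given by 1 peak list, of replicate 1. Cps25 belongs to COMPASS, the complex of Set1, and the labels do not say whether Cps25 wild-type cells are the parent strain or carry a reintroduced gene. The A142D and deletion genotypes of Cps25, the input and the replicate 2 libraries, 13 of the 17 libraries, were not analysed here. As each group has 1 list, no spread between replicates could be estimated, so each comparison describes these libraries and carries no test. Read depth is unknown.

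Set1, the catalytic subunit of COMPASS, is the only enzyme known to methylate H3 on lysine 4 in this yeast. H3K4me3 is known to lie at the 5′ ends of transcribed genes and H3K4me2 to reach further into them. Ubiquitin on a lysine near the C-terminal end of H2B is known to be needed for the di- and trimethylation made by Set1. It is placed by the conjugating enzyme Rad6 with the ligase Bre1, and the Paf1 complex, which travels with RNA polymerase II, is needed for it. The genes described here thus encode proteins that place this ubiquitin, are needed for it or remove it. The question put to the lists is how the 5′ ends of these genes were themselves marked.

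None of the 10 genes had a peak at its start in the set1 deletion lists, and all 10 had one in both Cps25 wild-type lists. The call asked for a listed peak sharing at least 1 bp with the ORF's first 500 bp. In set1 deletion cells 0 of 10 genes were marked with the H3K4me2 antibody, where 4.75% of all genes were, and 0 of 10 with the H3K4me3 antibody, where 3.4% of all genes were. In Cps25 wild-type cells 10 of 10 carried H3K4me2, where 75.1% of all genes did, and 10 of 10 carried H3K4me3, where 68.7% of all genes did. Peaks of both marks were listed at 66.2% of all genes. The counts of 0 in set1 deletion cells thus lie close to the background, and the state found in Cps25 wild-type cells is a common one. The Cps25 wild-type lists hold no peak that overlaps a set1 deletion peak of the same antibody. A gene start under a listed wild-type peak could therefore hardly have a set1 deletion peak as well, and the 2 results are not separate findings. In all 10 genes the peaks of both marks held the start codon itself. Each ORF lay under exactly 1 peak of each mark.

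The peaks that the antibodies gave in set1 deletion cells lay outside these genes. The nearest H3K4me2 peak of set1 deletion cells to any of the 10 start codons was 2604 bp away, beyond the 3′ end of BRE1, on the side of the ribosomal protein gene RPL31A. The nearest H3K4me3 peak of set1 deletion cells was 1783 bp upstream of CTR9. The farthest were those of PAF1, at 79298 bp with the H3K4me2 antibody and 79393 bp with the H3K4me3 antibody. The Cps25 wild-type lists are named as free of set1 deletion peaks, and 0 of 4393 H3K4me2 peaks and 0 of 4087 H3K4me3 peaks overlapped a set1 deletion peak of the same antibody; 354 and 258 peak numbers are missing from them. Of the 20 wild-type peaks at the 10 genes, 18 have neighbours with consecutive peak numbers in their list, and the other 2 are those of BRE1. The SET1 gene (YHR119W) itself had no peak in either set1 deletion list and a peak of each mark at its start in Cps25 wild-type cells.

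All 5 Paf1 complex genes carried H3K4me3 peaks at or above percentile 75 of the list by score, where 18.6% of all genes had one, and that of CDC73 was shared with a neighbour, while their H3K4me2 peaks ranked between the middle and the top. Ranks and percentiles come from the authors' score per peak, of unstated scale, and are set within a list only (100 is the highest). Positions are counted in bp from the first base of the start codon along the gene, on the sacCer3 build. PAF1, the subunit that names the complex, is YBR279W on chromosome II from 761257 to 762594. Its H3K4me2 peak ran from 63 bp before the start codon to 713 bp after it (761194 to 761970) and stood at rank 1689 of 4393, percentile 61.6. Its H3K4me3 peak ran from 78 bp before to 720 bp after the start codon (761179 to 761977) and stood at rank 75 of 4087, percentile 98.2, the highest H3K4me3 rank of the 10 genes. The 2 marks thus lay over nearly the same stretch of PAF1 while their ranks were far apart.

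CTR9 encodes the large scaffold subunit of the complex and has the longest ORF of the set (YOL145C, chromosome XV, 49555 to 52788). The H3K4me2 peak of CTR9 (52211 to 52891) ran from 103 bp before to 577 bp after the start codon, at percentile 92.5, and its H3K4me3 peak (52216 to 52905) from 117 bp before to 572 bp after it, at percentile 88.9. CTR9 was the only Paf1 complex gene whose H3K4me2 percentile was the higher. RTF1 encodes the subunit with the domain known to stimulate H2B ubiquitylation by Rad6 and Bre1 (YGL244W, chromosome VII, 41498 to 43174). The H3K4me2 peak of RTF1 (41404 to 42154) ended 656 bp after the start codon, at percentile 78.2, and its H3K4me3 peak (41399 to 42102) ended at 604 bp, at percentile 93.1.

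LEO1 encodes the subunit that pairs with Paf1 within the complex (YOR123C, chromosome XV, 553176 to 554570). The H3K4me2 peak of LEO1 (554041 to 554686) was the narrowest H3K4me2 peak of the 10 genes, 646 bp at percentile 72.6, and its H3K4me3 peak (554049 to 554708) was the narrowest H3K4me3 peak, 660 bp at percentile 87.6. CDC73, whose human counterpart is the tumour suppressor parafibromin, is YLR418C on chromosome XII from 956914 to 958095. The H3K4me2 peak of CDC73 (957499 to 958245) was 747 bp wide, at percentile 61.0, and ended 596 bp after the start codon. The H3K4me3 peak of CDC73 (957604 to 958911) was 1308 bp wide, at percentile 88.6, and ended at 491 bp. It also held the start codon of the gene on the other side, YLR419W, so its score cannot be given to CDC73 alone.

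**Figure D1:**
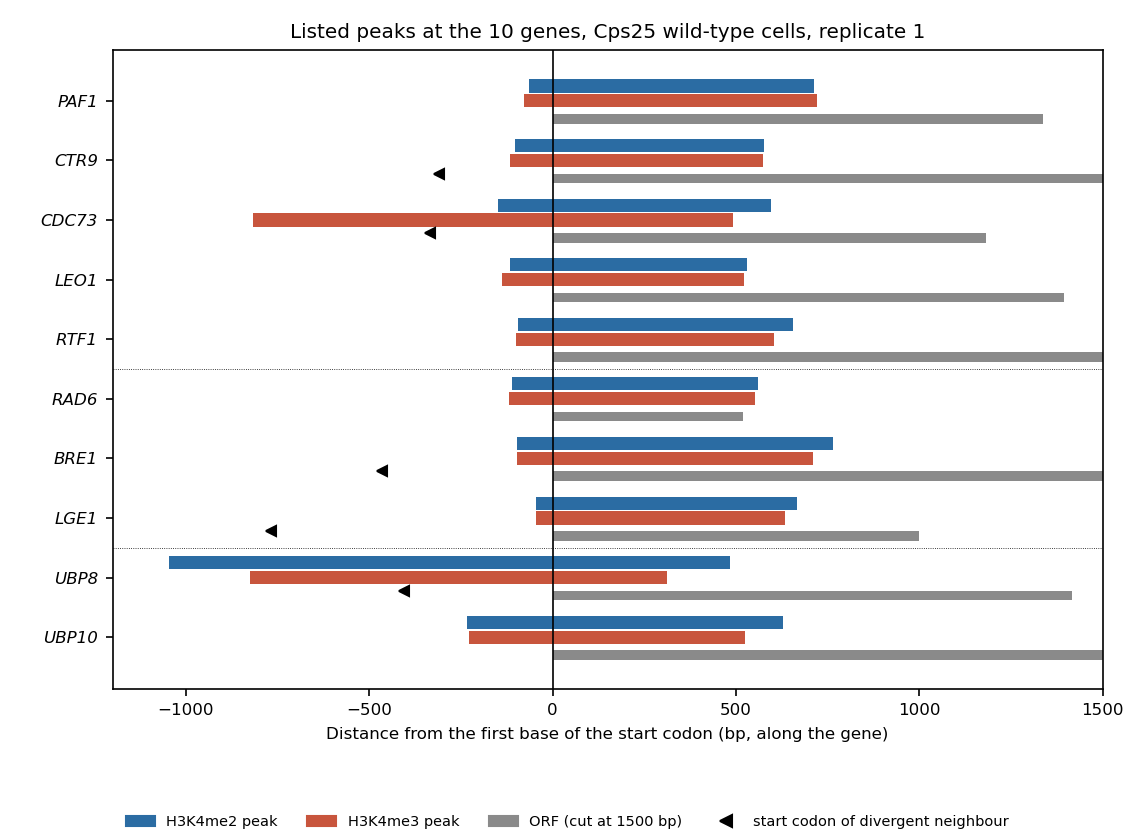
Listed H3K4me2 (upper bar) and H3K4me3 (lower bar) peaks of Cps25 wild-type cells at each gene, in bp from the start codon along the gene, with the ORF in grey and triangles at the start codons of divergent neighbours. Every bar crosses the start codon, and the wide bars of CDC73 (1308 bp, H3K4me3) and UBP8 (1530 bp, H3K4me2, and 1137 bp, H3K4me3) reach past the start of the neighbour.

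Of the genes for putting ubiquitin on H2B, BRE1 and LGE1 ranked high for both marks and RAD6 for H3K4me3. RAD6, the ubiquitin-conjugating enzyme, also of DNA repair, has the shortest ORF of the set (YGL058W, chromosome VII, 393986 to 394504). Both of its peaks covered 100% of the ORF: H3K4me2 (393875 to 394546) ended 560 bp after the start codon at percentile 71.8, and H3K4me3 (393867 to 394537) ended at 551 bp at percentile 92.6. BRE1 encodes the RING ligase that directs Rad6 to H2B (YDL074C, chromosome IV, 324047 to 326149). Its H3K4me2 peak (325386 to 326246) stood at rank 116 of 4393, percentile 97.4, the highest H3K4me2 rank of the 10 genes, and reached 763 bp past the start codon, the farthest of any peak in the set. Its H3K4me3 peak (325440 to 326247) reached 709 bp, at percentile 83.1. LGE1, which encodes a partner protein of Bre1, is YPL055C on chromosome XVI from 453992 to 454990. The H3K4me2 peak of LGE1 (454323 to 455034) stood at percentile 97.3 and its H3K4me3 peak (454357 to 455034) at percentile 88.0. Both began 44 bp before the start codon, the shortest upstream reach of the set, and they ended 667 and 633 bp after it. BRE1 and LGE1 were thus nearly equal in the H3K4me2 list, at ranks 116 and 120.

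The peaks at the deubiquitylation genes had the lowest H3K4me3 ranks of the set, and that of UBP8 was shared with a neighbour. UBP8 encodes the ubiquitin protease of the SAGA coactivator complex (YMR223W, chromosome XIII, 716715 to 718130). Its H3K4me2 peak (715668 to 717197) was 1530 bp wide at percentile 61.3, and its H3K4me3 peak (715889 to 717025) was 1137 bp wide at percentile 78.1. Both peaks also held the start of the divergent gene FSH2, and within UBP8 they ended early, 482 and 310 bp after the start codon. UBP10, also called DOT4, encodes a second H2B deubiquitylating enzyme, known from gene silencing (YNL186W, chromosome XIV, 289498 to 291876). The H3K4me2 peak of UBP10 (289264 to 290125) was 862 bp wide at percentile 74.7, and its H3K4me3 peak (289271 to 290021) was 751 bp wide at percentile 45.5, rank 2229 of 4087. UBP10 was the only one of the 10 genes with an H3K4me3 peak below percentile 50: at or above it were 10 of 10 genes for H3K4me2, where 40.7% of all genes were, and 9 of 10 for H3K4me3, where 36.5% were.

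By rank within a list the 10 genes stood higher for H3K4me3 than for H3K4me2. Their median H3K4me2 percentile was 73.7 (61.0 to 97.4), against a median of 58.6 over the 3975 genes with peaks of both marks. Their median H3K4me3 percentile was 88.3 (45.5 to 98.2), against 52.7 over those genes. An H3K4me2 peak at or above percentile 75 was found in 4 of the 10 genes, where 20.6% of all genes had one. An H3K4me3 peak at or above percentile 75 was found in 9 of the 10, where 18.6% of all genes had one. The H3K4me3 percentile was above the H3K4me2 percentile in 6 of the 10 genes, against 31.2% of genes with both marks. By role, the H3K4me3 percentiles ran from 87.6 to 98.2 in the Paf1 complex genes, from 83.1 to 92.6 in the conjugation genes, and were 78.1 and 45.5 in the deubiquitylation genes, which lay below all 8 others, although the UBP8 peak also held the start of FSH2 and its score cannot be given to UBP8 alone. The H3K4me2 percentiles of the roles overlapped: 61.0 to 92.5 in the Paf1 complex genes, 71.8 to 97.4 in the conjugation genes, and 61.3 and 74.7 in the deubiquitylation genes. In order of H3K4me3 rank the genes were PAF1, RTF1, RAD6, CTR9, CDC73, LGE1, LEO1, BRE1, UBP8 and UBP10. CTR9, CDC73, LGE1 and LEO1 lay between ranks 456 and 508. Without replicates no order among the 10 genes can be set beyond these libraries.

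**Figure D2:**
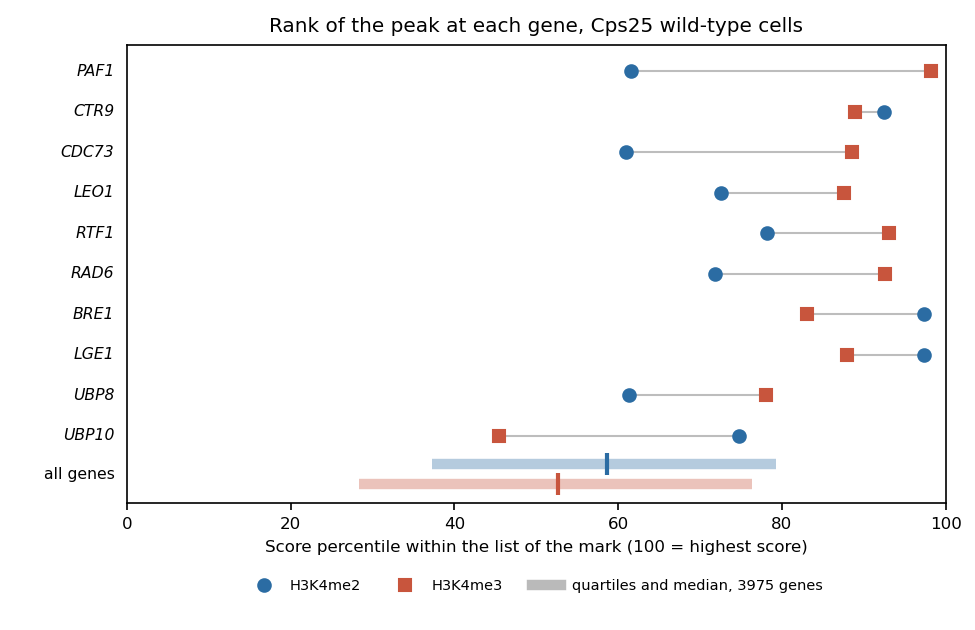
Score percentile of the peak at each gene within the H3K4me2 list (circles) and the H3K4me3 list (squares) of Cps25 wild-type cells, with the quartiles (bands) and median (ticks) of 3975 genes with both marks at the bottom. The squares of 9 genes lie at 78.1 or above and that of UBP10 at 45.5, while the circles run from 61.0 to 97.4.

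At the downstream side the H3K4me2 peak reached further than the H3K4me3 peak in 9 of the 10 genes, as in 94.5% of all genes with both marks, so the count is that of the background. The peaks of the 10 genes ended at a median of 611.5 bp (482 to 763) for H3K4me2 and 561.5 bp (310 to 720) for H3K4me3, against 584 and 493 bp over all genes with both marks. The difference in ends, H3K4me2 minus H3K4me3, had a median of 43 bp in the 10 genes and 82 bp over all genes. It was smaller at higher H3K4me3 ranks over all genes, with a median of 48 bp between percentiles 75 and 90 and of 32.5 bp above 90, the ranges that hold 9 of the 10 genes, and 43 bp lies between these medians. It was 172 bp at UBP8, 105 bp at CDC73 and 104 bp at UBP10, 54 bp at BRE1, 52 bp at RTF1 and 34 bp at LGE1. At RAD6, LEO1 and CTR9 it was 9, 8 and 5 bp, and at PAF1 the H3K4me3 peak ended 7 bp further on (-7 bp).

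At the upstream side the order of the marks differed between the genes of the set and depended on how peaks were joined. The H3K4me3 peak began further upstream in 7 of the 10 genes, against 21.4% of all genes with both marks, at LGE1 both began at the same base, and the H3K4me2 peak began further upstream in 2 of 10, against 77.1%. With peaks within 200 bp merged, a setting applied to this count after seeing the data, the count was 4 of 10 in place of 7. The share of all genes with merged peaks was not computed, so this count cannot be set against the 21.4%. All 5 Paf1 complex genes were among the 7. The differences, H3K4me2 minus H3K4me3, were small apart from those at the joined peaks: 22 bp at LEO1, 15 bp at PAF1, 14 bp at CTR9, 8 bp at RAD6, 5 bp at RTF1, 1 bp at BRE1 and -7 bp at UBP10. At CDC73, where the H3K4me3 peak took in the neighbour's start, the difference was 666 bp, and at UBP8, where both peaks did, it was -221 bp. The difference exceeded 10 bp in 4 of the 7 genes, and the share of all genes by that rule was not computed. In all, 4 of the 10 genes (PAF1, CTR9, CDC73 and LEO1) had an H3K4me3 peak at least as wide as the H3K4me2 peak, against 7.09% of genes with both marks. The difference in width, H3K4me2 minus H3K4me3, was -22 bp at PAF1, -14 bp at LEO1 and -9 bp at CTR9. It was -561 bp at CDC73, where the H3K4me3 peak was shared. The 7.09% is over all ranks, and the share among genes of like H3K4me3 rank was not computed.

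Over all genes with both marks the upstream order moved with the H3K4me3 rank. The H3K4me3 peak began further upstream in 0.689% of 871 genes up to percentile 25, in 2.71% of 997 genes to percentile 50, in 18.3% of 1055 genes to percentile 75, in 48.4% of 630 genes to percentile 90 and in 75.4% of 422 genes above it. Of the 10 genes, PAF1, RTF1 and RAD6 lay above percentile 90, and all 3 had the H3K4me3 peak further upstream. Between percentiles 75 and 90 lay 6 of them, 4 with the H3K4me3 peak further upstream. At or above percentile 75 the count was thus 7 of 9, against 59.2% of the 1052 genes with both marks in that range, a share much closer to the members' than the one over all genes. Edges and scores come from the same peaks of 1 library per mark, and the part of read depth in this order was not tested.

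**Figure D3:**
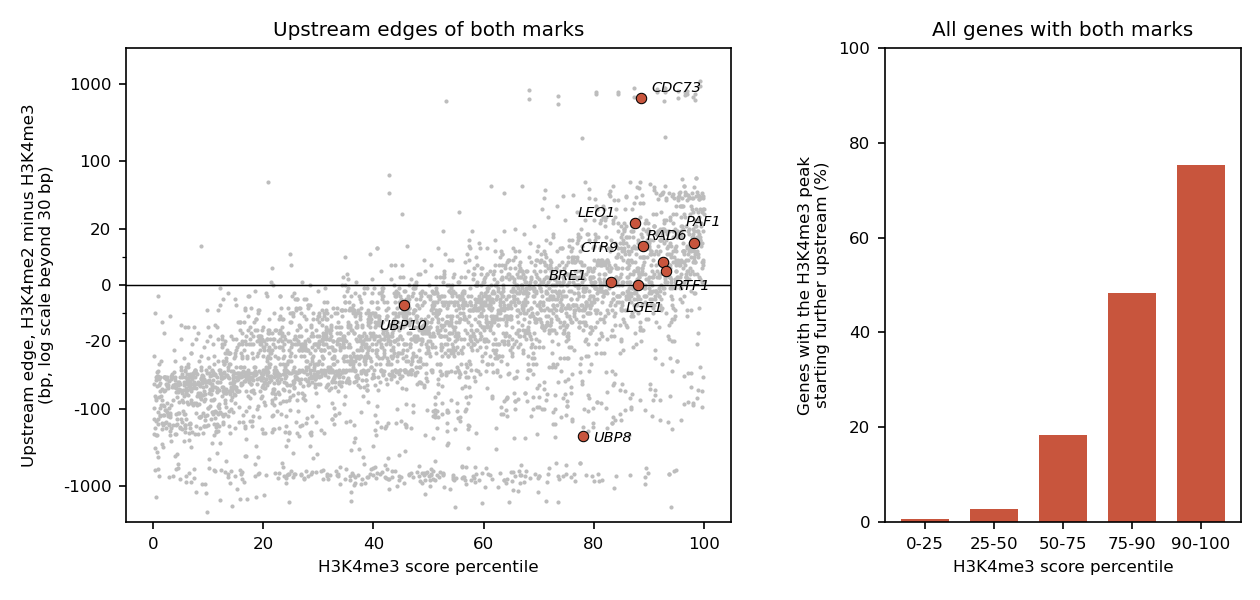
Left, the upstream edge of the H3K4me2 peak minus that of the H3K4me3 peak (bp; the axis is logarithmic beyond 30 bp, and values above 0 mean that H3K4me3 began further upstream) against the H3K4me3 score percentile, for 3975 genes (grey) and the 10 genes (red). Right, the percent of genes in each range of the H3K4me3 percentile whose H3K4me3 peak began further upstream; it runs between 0.689 and 75.4%, and 9 of the 10 genes lie in the 2 ranges on the right.

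How the marks met the upstream neighbour differed between the genes. The upstream neighbour is divergent in 5 of the 10 genes and on the same strand in the other 5. At CTR9 and the ribosome assembly gene NOP8, whose start codons lie 310 bp apart, each gene had its own peak of each mark, with gaps of 120 bp between the H3K4me2 peaks and 106 bp between the H3K4me3 peaks. The H3K4me3 percentile was 88.9 at CTR9 and 58.6 at NOP8. At BRE1 and AHK1 (464 bp between start codons) the gaps were 132 and 155 bp, and the H3K4me2 percentile was 97.4 at BRE1 and 49.7 at AHK1. At CDC73 and YLR419W (333 bp) the H3K4me2 peaks were separated by 56 bp, with the lower percentile at CDC73, 61.0, and the higher at YLR419W, 96.3, while 1 H3K4me3 peak covered both starts. At UBP8 and FSH2 (406 bp) 1 peak of each mark covered both starts. LGE1 and LEE1 (769 bp) differed in that LEE1 had no listed peak of either mark at its start. A peak that held the start of another gene was thus found at 1 of the 10 genes for H3K4me2, against 13.8% of marked genes, and at 2 of 10 for H3K4me3, against 8.68%.

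Among the 5 genes with an upstream neighbour on the same strand, the H3K4me3 percentile at the gene and its neighbour was 98.2 at PAF1 and 36.6 at DPB3, 87.6 at LEO1 and 65.0 at UBP2, 93.1 at RTF1 and 92.9 at GUS1, 92.6 at RAD6 and 1.44 at PKP2, and 45.5 at UBP10 and 18.7 at SWT21. In these libraries the gene of the set had the higher H3K4me3 percentile in each pair, by very little at RTF1 and GUS1. Without replicates no spread was measured, so none of these orders can be set beyond these libraries. For H3K4me2 the percentiles were 61.6 at PAF1 and 67.2 at DPB3, 72.6 at LEO1 and 83.0 at UBP2, 78.2 at RTF1 and 82.5 at GUS1, 71.8 at RAD6 and 25.9 at PKP2, and 74.7 at UBP10 and 22.5 at SWT21. The neighbour's H3K4me2 peak thus had the higher percentile at PAF1, LEO1 and RTF1, but without replicates no order in these pairs can be set beyond these libraries. The H3K4me2 peak of DPB3 also held the start of another gene, so its score cannot be given to DPB3 alone.

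The part of the ORF under a peak was smallest in the longest ORF and largest in the shortest. H3K4me2 peaks covered 17.9 to 100% of the ORF (median 38.6%) and H3K4me3 peaks 17.7 to 100% (median 36.75%), lowest at CTR9 and highest at RAD6. In bp the covered part was 483 to 764 for H3K4me2 and 311 to 721 for H3K4me3.

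The authors' deposited table divides the H3K4me2 peaks of Cps25 wild-type cells into 2 clusters, by a procedure that neither labels nor headers state. The H3K4me2 peaks over the starts of PAF1, CTR9, RAD6, BRE1, LGE1 and UBP10 stood in cluster 1, and those of CDC73, LEO1, RTF1 and UBP8 in cluster 2. This is 6 of 10, against 19.2% of the 4506 genes with an H3K4me2 peak. Of genes with both marks and an H3K4me3 peak at or above percentile 75, 57.6% were in cluster 1, and of the 9 genes of the set in that range 5 were. Over all genes with both marks, cluster 1 had a median H3K4me3 percentile of 85.4 and cluster 2 of 43.4. In the 10 genes the medians were 88.5 in cluster 1 and 88.1 in cluster 2, so the clusters did not separate them by H3K4me3 rank. The H3K4me3 peaks of CDC73 and UBP8, both counted in cluster 2, were shared with a neighbour. By H3K4me2 percentile the medians of the 10 genes were 83.6 (61.6 to 97.4) in cluster 1 and 67.0 (61.0 to 78.2) in cluster 2. Over all genes with both marks they were 81.7 and 51.3. The H3K4me2 peaks of the 10 genes ended at a median of 647 bp in cluster 1 (6 genes) and 562.5 bp in cluster 2 (4 genes), against 658 and 567.5 bp over all genes.

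The deposited nearest start of a peak is never the start it holds at these genes. In the authors' deposited table the peak over the start of CTR9 names NOP8, that of CDC73 names YLR419W, that of BRE1 names AHK1, that of LEO1 names PFY1 and that of RAD6 names GEP7. Over the whole list 4 of 4393 peaks name a start inside the peak, although 3993 peaks hold at least 1 start codon. Read by that column, 6 of the 10 genes are named for some other peak and only CTR9 is named for a peak of cluster 1, while LEO1, RTF1, LGE1 and UBP8 are named for none. The authors' deposited table of gene ontology terms for cluster 1 lists 59 terms, 6 of them on transcription elongation. For regulation of elongation of DNA-templated transcription, the authors' deposited table gives 8 genes found, 1.78 expected and 15 annotated, with a Fisher p of 0.000111 that is not stated to be adjusted. It does not list the genes behind a term, so whether genes of the Paf1 complex are among them cannot be read from it.

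In a wider list of 18 genes that act with these proteins, an H3K4me3 peak was listed within the first 500 bp of every ORF and an H3K4me2 peak within that of most. Not every such H3K4me3 peak held the start codon. In set1 deletion cells 3 of 18 were marked with the H3K4me2 antibody and 0 of 18 with the H3K4me3 antibody, against the 4.75% and 3.4% of all genes given above. In Cps25 wild-type cells 15 of 18 carried H3K4me2 and 18 of 18 H3K4me3, against 75.1% and 68.7%. The 3 genes without a listed H3K4me2 peak were HTB1 and HTB2, the 2 genes of H2B itself, and UBA1, the ubiquitin-activating enzyme. The same 3 carried the H3K4me2 peaks of set1 deletion cells, and peak numbers were skipped there in the wild-type H3K4me2 list (1, 1 and 2 numbers), so the lists do not tell whether they carried H3K4me2. The H3K4me3 peaks of HTB1 and HTB2 were weak, at percentiles 2.35 and 2.91, and began 28 and 27 bp after the start codon. Reads of HTB1 and HTB2, whose coding sequences are nearly the same, may be split between them in an unknown way.

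The highest ranks of the wider list were those of elongation factors, a histone chaperone and a remodeller. SPT6, a histone chaperone of elongating polymerase, had the highest H3K4me3 percentile of the wider list, 97.7, and stood at 81.5 for H3K4me2. SPT5, which binds the polymerase and the Paf1 complex, stood at 92.2 for H3K4me2 and at 92.7 for H3K4me3, in an H3K4me3 peak that also held the start of RAD33. CHD1, a chromatin remodeller, had the highest H3K4me2 percentile, 96.3, in a peak 1869 bp wide, and SPT16 of the chaperone FACT had the next, 94.1. The subunits of the SAGA deubiquitylation module that holds Ubp8, named here after their values were seen, stood at 76.7 (SGF11), 64.2 (SGF73) and 66.5 (SUS1) for H3K4me2 and at 11.6, 64.0 and 16.5 for H3K4me3. The H3K4me2 peaks of SGF11 and SUS1 also held other starts and were 1918 and 1311 bp wide. An H3K4me2 peak at or above percentile 75 was found at 8 of 18 genes, where 20.6% of all genes had one, and an H3K4me3 peak at or above it at 8 of 18, where 18.6% of all genes had one. Of the 15 genes with both marks, 14 had the H3K4me2 peak ending further downstream, against 94.5% of all genes, 4 had the H3K4me3 peak beginning further upstream (SPT16, SPT6, POB3 and SPT5), against 21.4%, and 7 were in cluster 1, against 19.2% of genes with an H3K4me2 peak.

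**Figure D4:**
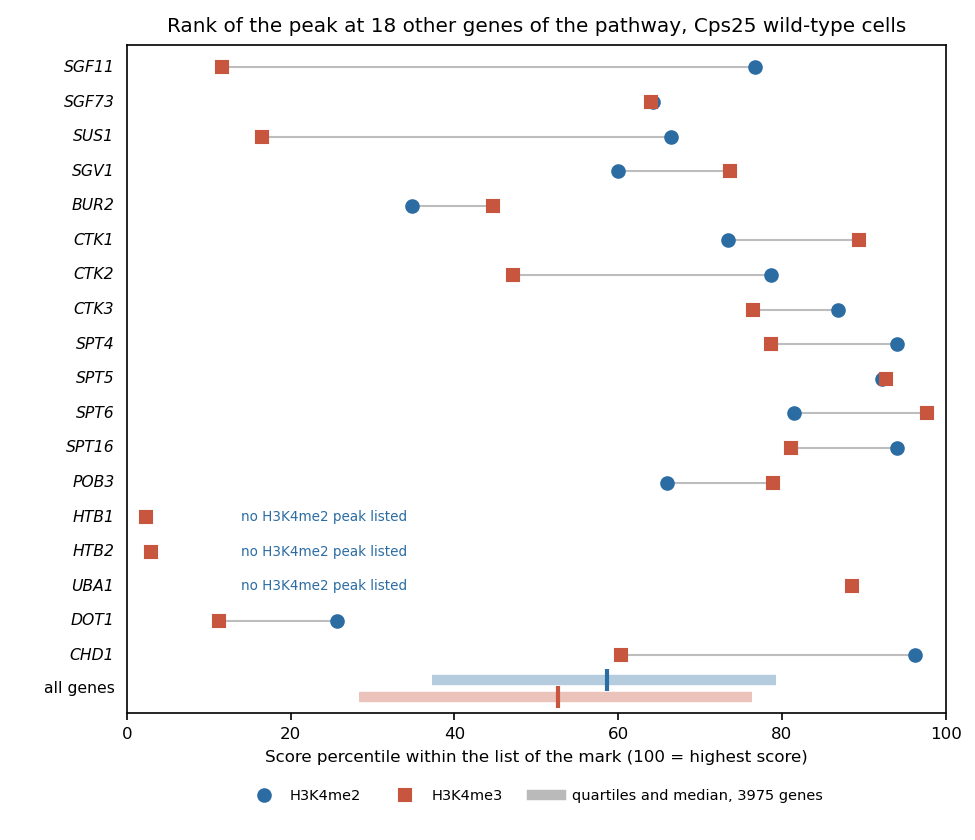
Score percentile of the peak at each of 18 further genes of the pathway in the H3K4me2 list (circles) and the H3K4me3 list (squares) of Cps25 wild-type cells, with the quartiles and medians of 3975 genes with both marks at the bottom. SPT6 (97.7) and SPT5 (92.7) have the highest squares, HTB1 (2.35) and HTB2 (2.91) the lowest, and 3 genes have no listed H3K4me2 peak.

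In the 10 genes the peaks began at a median of 107 bp (H3K4me2) and 118 bp (H3K4me3) before the start codon, against 104 and 88 bp over all genes with both marks. Among 3950 genes outside both lists, those closest to the medians of the 10 genes over the 4 peak edges were RSC30, at 12.1 bp of Euclidean distance, ARC18 at 16.9 bp and AFG3 at 17.6 bp. Within the set CTR9 was closest to its medians, at 36.3 bp, and UBP8 farthest, at 1210 bp, followed by CDC73 at 703 bp. Each comparison rests on the edges of 1 library per mark.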

How the data were processed

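Chromatin from the 17 libraries (4 genotypes with 2 antibodies and 2 replicates each, and 1 input) had been sequenced by the authors. Bowtie 1.1.2, MACS2 2.1.1 and the sacCer3 build are named in the submitters' processing notes. The 4 lists used hold peaks of single libraries with a score per peak deposited by the authors, and no label or header gives the score's scale, so it served only to rank peaks within a list. The authors' deposited table of H3K4me2 peaks also gives a cluster and a nearest start, and their table of gene ontology terms gives counts, a fold ratio over the expected count and a Fisher p-value, which were copied as deposited. The ontology table of cluster 2 was not used.

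Peak starts in BED files were converted to 1-based positions, and the narrowest peak of all 4 lists then measured 146 bp. Genes were the 6002 nuclear protein-coding genes of a RefSeq table of the R64 reference, with strand read from the systematic name. A gene was called marked when a peak overlapped its first 500 bp by at least 1 bp, and with several peaks the one of largest overlap was taken. Percentiles are the percent of peaks of a list at or below a peak's score. The calls were tested on simulated data (1000 of 1000 genes called as made) and checked against bedtools 2.31.1, with 0 genes differing. Python 3.11.15 with pandas 2.3.3 and numpy 2.4.6 was used. The text names the 10 genes, their neighbours, SET1, the wider genes lacking a mark or with the 2 highest scores of a mark, and the 3 genes closest in shape. SGF11, SGF73, SUS1 and POB3 fall outside this rule and were named after their values were seen. The members and lists were chosen with earlier results of these data known. No sequence is printed, since none was used. Alternatives changed the window, the overlap, the peak edges, the score cut and the gene table.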

Additional observations from a re-analysis of the deposited data

How the results depend on the processing

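No paired analysis was possible because each group is given by 1 list and no result comes from a test, and for the same reason no replicate could be left out. Of 116 alternative values for the 10 genes and the wider list, 110 kept within 1.5 times the count, or within 1 SD over the genes for a median. This share does not measure robustness. Extending or shortening all peaks leaves score percentiles, differences between edges and their order as they were. The SD of starts and widths includes wide peaks such as that of UBP8. A median H3K4me2 start of -7 bp with shortened peaks, against -107 bp, thus counted as kept. The number of the 10 genes whose H3K4me3 peak began further upstream was 7, but 4 when peaks within 200 bp were merged and 4 when only differences over 10 bp counted. The share of all genes was not computed under either setting, so neither count of 4 can be set against a background. Read by the authors' deposited nearest start, 1 gene was in cluster 1 (6 genes were named at all) in place of 6 of 10. The use of these settings for the upstream order and the cluster was chosen after seeing the data. With the upper 50% of each list by score, 11 of the 18 wider genes carried H3K4me3 in place of 18. The share of all genes fell as well, to 36.6% in place of 68.7%. The median end of the H3K4me2 peak moved by construction to 711.5 bp with peaks extended by 100 bp and to 511.5 bp with peaks shortened by 100 bp, against 611.5 bp. The background moved with the gene table: with ORFs of at least 1000 bp it was 2.2% (H3K4me2) and 2.34% (H3K4me3) in set1 deletion cells and 80.9% and 74.0% in Cps25 wild-type cells, and with standard-named genes 80.1% and 74.2% in Cps25 wild-type cells. Depth is unknown, so a start without a listed peak is not shown to lack the mark.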

Other observations

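The genes downstream of the set were marked unevenly. PFY1, the profilin gene that follows LEO1, stood at percentile 93.1 for H3K4me2 and 96.3 for H3K4me3, and MRPL19, which follows UBP10, at 93.9 and 83.6. SAF1, which follows PAF1, stood at 11.4 and 0.587, although PAF1 had the highest H3K4me3 rank of the set. VPS36 next to CDC73, RPL31A next to BRE1 and LCL1 next to LGE1 had no listed peak of either mark at their starts, and PSF3 next to CTR9 had H3K4me2 at 13.9 and no listed H3K4me3 peak. On the side of RPL31A, set1 deletion peaks lay 2604 bp (H3K4me2) and 3189 bp (H3K4me3) from the BRE1 start codon. A peak number was skipped beside the BRE1 peak in both wild-type lists, so the lists do not tell whether RPL31A carried either mark.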
